A study of Mus musculus with 6 samples.

Results

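The unfolded protein response and the amino acid response were followed through 36 genes named for these pathways, and 37 rows of the deposited table of 54532 genes carried 1 of their names. The extra row was a second Ddit3 identifier with 0 counts in every library, and it was not used. All 36 genes had enough counts to be tested, among 13705 tested genes in all. The libraries were RNA-seq of mesenchymal stromal cells (MSCs, precursors of the skeletal lineages) from mouse alveolar bone, the part of the jaw that holds the teeth. Wild-type mice (WT) gave 3 libraries and mice without Ccrl2 (KO), which encodes an atypical chemokine receptor, gave the other 3. The submitters describe both genotypes as under inflammation brought on by TNFα and in osteogenic induction. No dose, time or age was given, and no group labelled as without TNFα was analysed here. The count columns, however, carry the word Ctrl, whose meaning the sources used here do not give. The submitters call the replicates biological without tying each to a mouse, so the p-values measure the spread between these samples.

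The unfolded protein response senses misfolded proteins in the endoplasmic reticulum (ER) through IRE1, PERK and ATF6. ATF6 and spliced XBP1 induce chaperones and the machinery of ER-associated degradation, the route by which misfolded proteins are sent to the proteasome. PERK phosphorylates the initiation factor eIF2α, which slows general translation and lets ATF4 be translated, and GCN2 does the same when amino acids run short. ATF4 then induces genes of amino acid synthesis and uptake together with stress regulators such as Trib3, Chac1 and Ddit3. Osteoblast-lineage cells secrete large amounts of collagen and depend on both arms.

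Promoters of the members carried the letters of the elements these factors are known to bind, and the stretches below are shown as examples from the folding, degradation and amino acid response genes. The RefSeq promoter table (GRCm38.p6, from 250 bases before to 50 bases after each start) held 33 of the 36 members, and 32851 promoters in all. Capitals mark the match on either strand to the ER stress element (ERSE, CCAAT and CCACG with 9 bases of any kind between them), to ERSE-II (ATTGG and CCACG with 1 base of any kind between them) or to the core of the ATF4 element (CARE, TGATGNAA). Each is shown 5′ to 3′ on the strand of its gene with 20 bases on either side.
Hspa5 (ERSE, chr2:34772005-34772063, plus strand): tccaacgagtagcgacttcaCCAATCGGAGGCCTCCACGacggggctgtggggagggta
Calr (ERSE, chr8:84847055-84847113, minus strand): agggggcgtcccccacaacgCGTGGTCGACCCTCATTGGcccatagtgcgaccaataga
Canx (ERSE, chr11:50325780-50325838, minus strand): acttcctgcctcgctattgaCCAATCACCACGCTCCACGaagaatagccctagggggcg
Herpud1 (CARE, then ERSE-II, chr8:94386297-94386407, plus strand): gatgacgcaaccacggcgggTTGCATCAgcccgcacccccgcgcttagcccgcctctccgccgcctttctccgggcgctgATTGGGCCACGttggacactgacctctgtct
Asns (CARE, chr6:7693205-7693252, minus strand): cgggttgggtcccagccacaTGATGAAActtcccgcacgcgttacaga
Chac1 (CARE, chr2:119351029-119351076, plus strand): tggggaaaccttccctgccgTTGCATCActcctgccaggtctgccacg
Slc7a11 (CARE, 2 matches, chr3:50443633-50443699, minus strand): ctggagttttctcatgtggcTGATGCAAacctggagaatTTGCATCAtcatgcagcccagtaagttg

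The ERSE letters stood in the promoters of 7 of 15 matched folding and degradation genes (Hspa5, Hsp90b1, Calr, Canx, Pdia6, Dnajc3 and Creld2) and of 0 of 8 amino acid synthesis genes and effectors, against 0.119% of all promoters in the table. ERSE-II stood in Herpud1 and Dnajb11, against 0.0365% of all promoters. The CARE core was found in Asns, Chac1 and Trib3 (3 of the 8), in Slc7a11 and in Herpud1, against 3.97% of all promoters, and the matches of CARE in Trib3 and of ERSE-II in Dnajb11 lay after the start. Herpud1 was thus the member with an ERSE-II and a CARE match together. The XBP1 element UPRE (TGACGTGG) was found in 0 of the 33 promoters and in 0.676% of all. Letters of ERSE and ERSE-II share their CCACG end and can overlap. The members were named for the pathways of these elements, so their shares beside those of all promoters are no test of enrichment. A match describes these windows only.

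Total counts lay between 16114974 and 18616433 per library. Ccrl2 had 4, 3 and 0 counts in WT and 0 in each KO library, too few to check the genotype. On the first principal component, with 52.1% of the variance, KO replicate 2 lay far from the rest, and it had fewer genes with a count (16428 against 18928 to 19372) and more mitochondrial counts (2.32% against 1.09% to 1.56%). All 11 MSC markers looked at had counts, among them Prrx1, Pdgfra and Cd44. Of 12 osteoblast markers all had counts, but the mature-cell markers Bglap and Dmp1 had at most 3 in any library. Of the 8 of them tested, 4 had a log2 fold change above 0 and 4 below. Sp7 (log2 fold change 1.91 ± 0.30), Alpl (1.31 ± 0.26) and Ibsp (2.60 ± 0.46) rose in KO. Their adjusted p were 0.00609, 0.0254 and 0.0133 (edgeR). Col1a1 (-0.33), Col1a2 (-0.26), Sparc (-0.09) and Runx2 (-0.05) were below 0 and not called. Of the 11 MSC markers, 7 were above 0 and 4 below. Thy1 alone was called among these, and it fell (-0.81 ± 0.10, adjusted p = 0.00141, edgeR). Epcam, Krt5 and Krt8 of epithelium and Cd3e of T cells were at 0. Cdh1 of epithelium had 1 to 9 counts per library, and Trac of T cells 6 to 36. Of the adipocyte markers, Fabp4 was called lower in KO (-1.30 ± 0.28, adjusted p = 0.0390, edgeR). Lpl (-0.16) and Pparg (0.39) were not called. All 18 macrophage markers had counts, and their summed level was 395 to 451 CPM (a gene's counts scaled to 1000000 counts per library) in WT and 107 to 110 in KO. The summed level of 6 chondrocyte markers was 73.2 to 86.4 CPM in WT and 29.4 to 41.6 in KO, with Col9a1 at 0. That of 7 endothelial markers was 3.73 to 6.64 CPM in WT and 1.73 to 4.42 in KO. Macrophages also express genes of these pathways, and the part of these marker shifts, or of KO replicate 2, in the differences below was not tested except where values without that library are given. In RNA of whole cultures, fewer cells with a transcript and less of it per cell cannot be told apart.

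Between KO and WT, 0 of the 36 members passed the threshold, a Benjamini-Hochberg adjusted p under 0.05 in edgeR's quasi-likelihood test, which 2.67% of all 13705 tested genes passed (0.365% higher and 2.31% lower in KO). The members nearest to the threshold were Asns and Chac1, with higher levels in KO, and Edem1, with lower levels. The genes of ER folding sat close to no difference, with a median log2 fold change of 0.08 over 14 genes, whereas the amino acid synthesis genes with Trib3 and Chac1 had a median of 0.39 over 8 genes, against 0.02 over all tested genes. At an unadjusted p under 0.05, 9 members were higher and 2 lower in KO, which is 30.6% of the members against 14.5% of all tested genes (5.68% higher and 8.77% lower). The log2 fold change was above 0 in 25 members, against 52.2% of all tested genes. DESeq2 called 4 members (and 4.79% of all genes), limma-voom 0 (2.37%), and limma-voom with library quality weights 13 (18.5%). The edgeR test called 4 members without the filter on low counts (3.67% of all genes) and 0 with the replicate number as a block (2.42%). It called 4 without KO replicate 2 (4.33%) and 1 without KO replicate 1 (2.15%). Leaving out WT replicate 1 (1.13%), 2 (1.04%) or 3 (1.51%) or KO replicate 3 (1.3%) left 0 members called. In 12 members all 3 KO libraries lay above all 3 WT libraries, which is 33.3% of them against 9.9% of all tested genes, and in 2 they lay below, against 11%. The members and lists were chosen with earlier results of these data known. Their shares beside those of all tested genes, here and below, are therefore no test of enrichment.

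**Figure D1:**
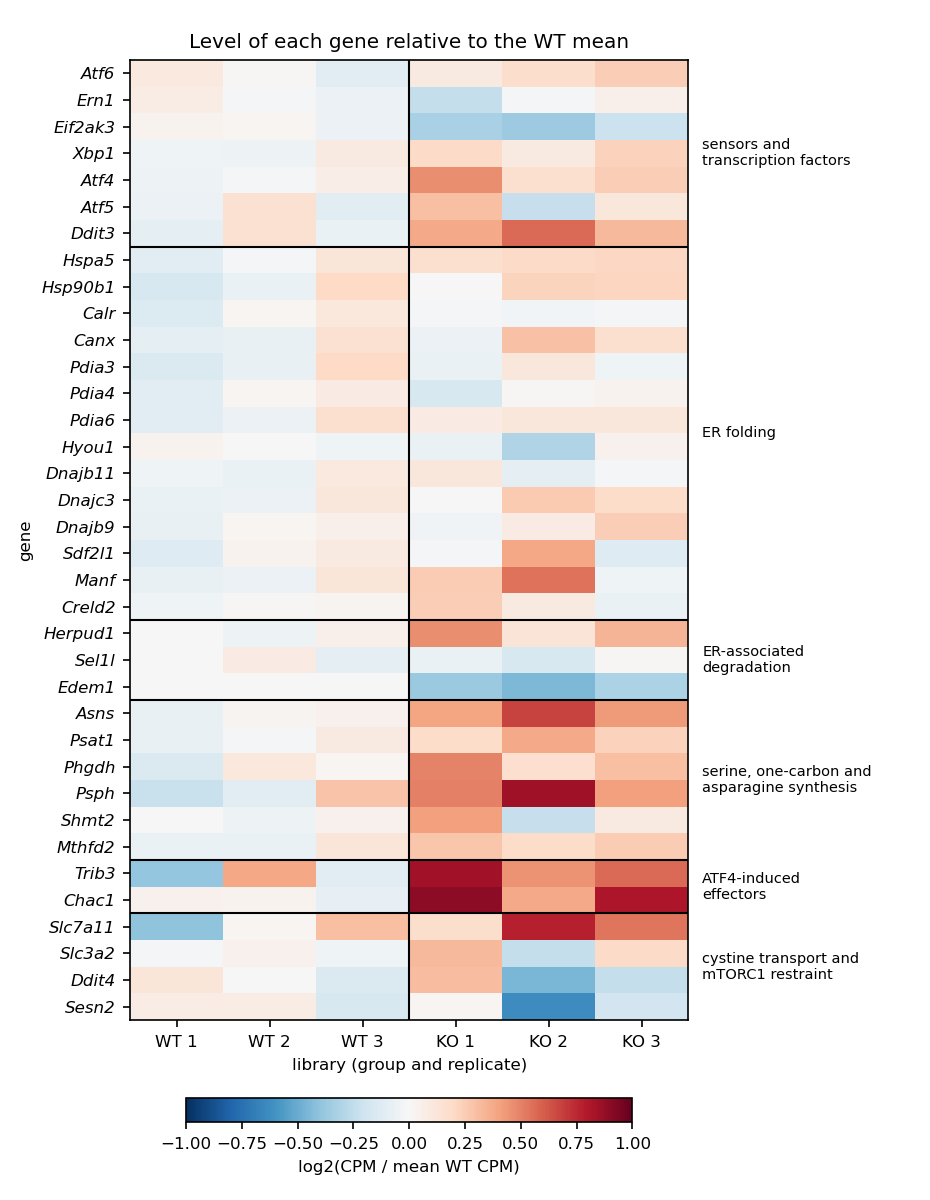
Level of the 36 genes (rows, grouped by role) in the 6 libraries (columns), as log2 of CPM over the mean WT CPM, with red above and blue below the WT mean. The synthesis genes, Trib3 and Chac1 are red across the KO columns, apart from Shmt2 in KO replicate 2. Slc3a2, Ddit4 and Sesn2 are blue in KO replicate 2, and the folding genes are pale in both groups, apart from Manf and Sdf2l1 in KO replicate 2.

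The sensors and transcription factors had log2 fold changes of both signs, from -0.32 to 0.41. Eif2ak3, the PERK kinase, stood at 49.9, 49.5 and 46.9 CPM in the WT libraries and at 39.0, 37.8 and 42.1 CPM in KO. Its groups did not overlap, with KO the lower (log2 fold change -0.32 ± 0.11, SE, adjusted p = 0.215). Ern1, which encodes the IRE1 sensor and nuclease, had 29.5 ± 1.46 CPM in WT and 28.2 ± 2.85 in KO (SD, n = 3 per group), and Atf6, the third sensor, 71.5 ± 5.19 and 80.6 ± 4.46, with overlapping groups for both. Xbp1, the transcript that IRE1 splices, stood at 173, 172 and 189 CPM in WT and 204, 189 and 209 in KO, where the highest WT and the lowest KO library all but touched (log2 fold change 0.15 ± 0.10, adjusted p = 0.483). Counts per gene do not separate its spliced from its unspliced form.

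Atf4 encodes the factor of the amino acid arm, whose output is set largely at translation. It had 219, 225 and 237 CPM in WT and 313, 254 and 270 in KO, and each KO library was above each WT library (log2 fold change 0.27 ± 0.11, adjusted p = 0.281). KO replicate 1 was the highest, and without it the log2 fold change was 0.17. Ddit3 encodes CHOP, a pro-apoptotic factor induced by ATF4. Its levels were 21.2, 25.2 and 21.6 CPM in WT and 29.5, 33.5 and 28.4 in KO, again without overlap (log2 fold change 0.41 ± 0.14, adjusted p = 0.204). Exons of Ddit3 and of Mars, the methionyl-tRNA synthetase gene on the other strand, share 68 bases, and Mars had a log2 fold change of 0.06 ± 0.12. Atf5, a related factor that ATF4 induces, had 336, 390 and 324 CPM in WT and 432, 298 and 379 in KO, with KO replicate 2 the lowest of all libraries (log2 fold change 0.06 ± 0.14).

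Of the 14 folding genes, 0 had an unadjusted p under 0.05, and Hspa5 alone separated the groups. Hspa5 (chromosome 2, 34771970 to 34777547, plus strand, GRCm38), the ER chaperone BiP that also holds the sensors inactive, stood at 581, 618 and 682 CPM in WT and 701, 716 and 724 in KO. The KO values lay just above the highest WT library (log2 fold change 0.17 ± 0.10, adjusted p = 0.460). Calr, the lectin chaperone calreticulin, was the most abundant member per length, at 305 CPM per kilobase in WT and 301 in KO. Its CPM were 800, 890 and 948 in WT and 873, 862 and 866 in KO, so the KO libraries fell inside the WT range (log2 fold change -0.04 ± 0.10). Manf, a secreted ER stress protein, had 61.5, 61.9 and 70.5 CPM in WT and 77.0, 94.3 and 62.9 in KO, with overlap (log2 fold change 0.25 ± 0.15, adjusted p = 0.454). KO replicate 2 was its highest library, and without it the log2 fold change was 0.09 ± 0.12. Manf also shares 146 exon bases with Dcaf1 on the other strand. Dnajc3, a co-chaperone of BiP that inhibits PERK, had 156, 157 and 177 CPM in WT and 164, 196 and 185 in KO (log2 fold change 0.13 ± 0.11).

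The other folding genes had log2 fold changes from -0.12 ± 0.11 for Hyou1, a nucleotide exchange factor of BiP, to 0.13 ± 0.12 for Hsp90b1, the chaperone GRP94. Pdia3 (-0.02), Pdia4 (-0.06) and Pdia6 (0.08), which form disulfide bonds, lay within 0.1 of no difference. So did the co-chaperones Dnajb11 (-0.01), Dnajb9 (0.08) and Sdf2l1 (0.07) and the ER stress protein Creld2 (0.07), and Canx, the membrane-bound partner of calreticulin, had 0.12. All of these had adjusted p of 0.624 or more, and their SEs of 0.10 to 0.18 set what size of difference the test could see.

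The degradation genes had differences of both signs. Edem1 (chromosome 6, 108828641 to 108859356, plus strand), a lectin that picks misfolded glycoproteins for disposal, had 117, 116 and 116 CPM in WT and 90.1, 85.1 and 93.4 in KO. The WT libraries were within 1 CPM of each other and every KO library was below them (log2 fold change -0.40 ± 0.10, adjusted p = 0.0616). DESeq2 called Edem1 lower (adjusted p = 0.00824), as did the fit without KO replicate 2 (adjusted p = 0.0457). Herpud1, a membrane protein of the degradation complex, had the opposite sign, with 74.2, 72.0 and 77.1 CPM in WT and 103, 81.2 and 94.1 in KO (log2 fold change 0.29 ± 0.11, adjusted p = 0.264). Its groups did not overlap, and without KO replicate 2 it was called (log2 fold change 0.38 ± 0.10, adjusted p = 0.0450). Without KO replicate 1 the log2 fold change was 0.20 (adjusted p = 0.307), and without WT replicate 2 the adjusted p was 0.726. Within each library, Edem1 gave 1574, 1617 and 1504 counts per 1000 Herpud1 counts in WT and 879, 1048 and 993 in KO, a ratio that no library scaling can change. Sel1l, the scaffold of the degradation complex, had 198, 209 and 185 CPM in WT and 189, 177 and 199 in KO, with overlap (log2 fold change -0.09 ± 0.10).

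**Figure D2:**
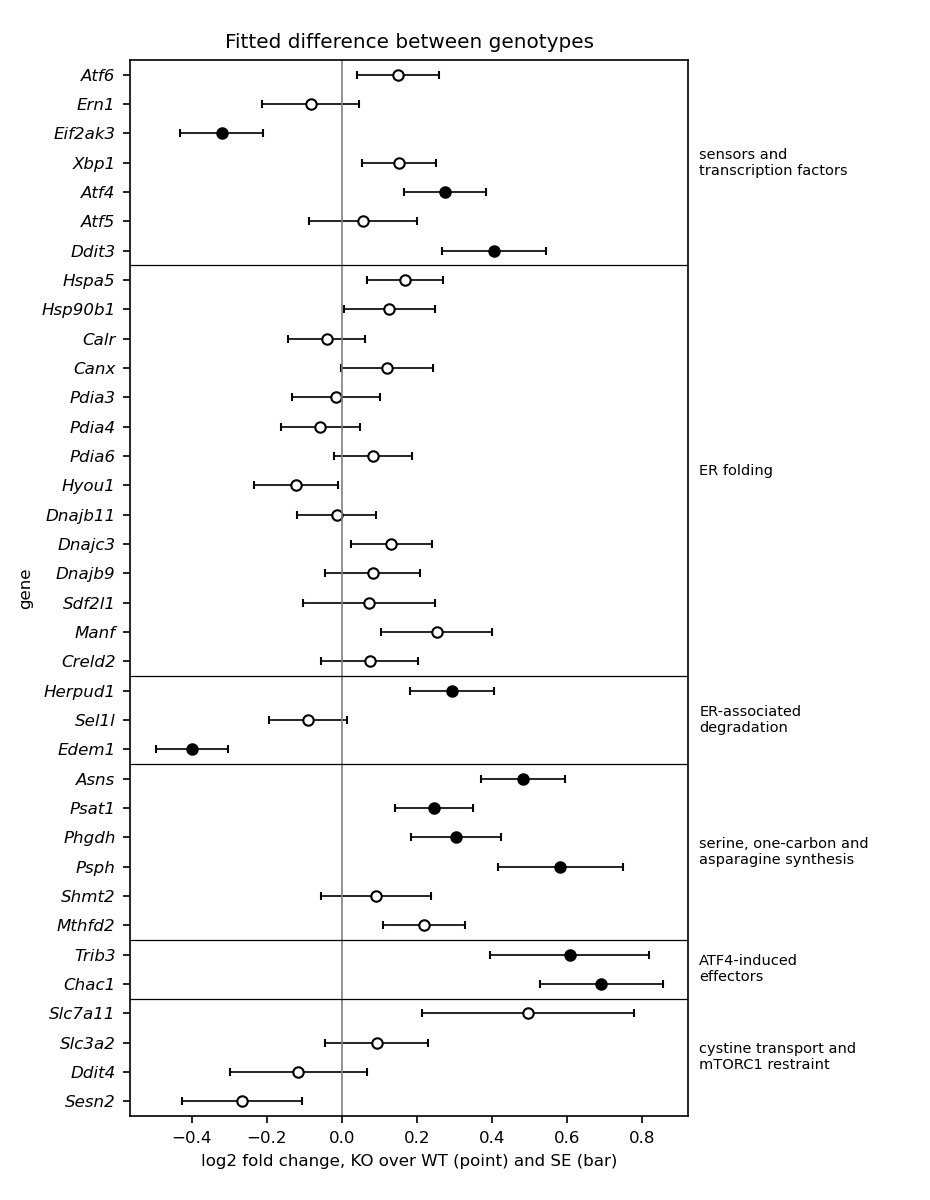
Log2 fold change of KO over WT (points) with its SE (bars) for the 36 genes grouped by role, from the edgeR fit over all tested genes, with filled points at an unadjusted p under 0.05. The 6 synthesis genes, Trib3 and Chac1, here called the 8 ATF4 targets, lie right of 0, from 0.09 for Shmt2 to 0.69 for Chac1. Of the remaining 4 ATF4 targets, Slc7a11 (0.50) and Slc3a2 (0.09) lie right of 0, and Ddit4 (-0.12) and Sesn2 (-0.27) left. The folding genes lie between -0.12 and 0.25.

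All 6 amino acid synthesis genes had a positive log2 fold change, against 52.2% of all tested genes. Of the 6, 4 were higher at an unadjusted p under 0.05 (5.68% of all tested genes), and in 5 the KO libraries lay above the WT libraries (9.9%). Asns (chromosome 6, 7675169 to 7693254, minus strand), asparagine synthetase and a standard readout of ATF4, had 108, 117 and 118 CPM in WT and 150, 182 and 153 in KO. The lowest KO library was well above the highest WT library (log2 fold change 0.48 ± 0.11, 1.40-fold, adjusted p = 0.0507). With library totals in place of TMM scaling the adjusted p was 0.0408, and it was 0.0053 in DESeq2 and 0.0328 without KO replicate 2. Asns was called in 9 of 17 alternative fits, and its adjusted p ranged from 0.0021 to 0.278 over them, with the highest value without WT replicate 1.

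The serine route takes 3-phosphoglycerate to serine through Phgdh, Psat1 and Psph in turn. Phgdh had 278, 330 and 311 CPM in WT and 432, 343 and 377 in KO (log2 fold change 0.30 ± 0.12, adjusted p = 0.273), and 0.20 without KO replicate 1. Psat1 had 138, 144 and 155 CPM in WT and 165, 189 and 171 in KO (0.25 ± 0.10, adjusted p = 0.309). Psph had 23.3, 25.1 and 33.1 CPM in WT and 38.5, 49.0 and 36.1 in KO (0.58 ± 0.17, adjusted p = 0.122). In all 3 genes the KO libraries were above the WT libraries, by a narrow gap in Phgdh and Psph. Psph shares 452 exon bases, 10.4% of its exons, with the abundant gene Cct6a on the other strand, which had a log2 fold change of 0.30 ± 0.11, and the library kit the labels name, NEBNext Ultra, does not mark strand. The part of Cct6a reads in the Psph counts was not tested.

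Mitochondrial folate enzymes take serine further into one-carbon units. Mthfd2 had 39.8, 39.7 and 45.4 CPM in WT and 50.6, 47.3 and 49.6 in KO, without overlap (log2 fold change 0.22 ± 0.11, adjusted p = 0.393). Shmt2 had 91.6, 88.0 and 93.8 CPM in WT and 121, 77.5 and 97.1 in KO, where KO replicate 2 was below every WT library (0.09 ± 0.15). Without KO replicate 2 the Shmt2 log2 fold change was 0.23 ± 0.11, and without KO replicate 1 it was -0.09.

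The effectors Trib3 and Chac1 had the largest log2 fold changes of the 36 members. Chac1 (chromosome 2, 119351229 to 119354381, plus strand), which degrades glutathione, had 14.9, 14.9 and 13.7 CPM in WT and 27.0, 18.9 and 25.5 in KO. KO replicates 1 and 3 were close together and KO replicate 2 lay between them and WT (log2 fold change 0.69 ± 0.16, 1.62-fold, adjusted p = 0.0565). It was called in 5 of 17 alternative fits, among them without KO replicate 2 (log2 fold change 0.83 ± 0.15, adjusted p = 0.00141), in DESeq2 (adjusted p = 0.00922) and with library totals in place of TMM scaling (adjusted p = 0.0494). Trib3 (chromosome 2, 152337422 to 152344032, minus strand), a pseudokinase that feeds back on ATF4, had 8.57, 14.6 and 10.4 CPM in WT and 20.1, 15.3 and 16.6 in KO. The highest WT library almost reached the lowest KO library (log2 fold change 0.61 ± 0.21, adjusted p = 0.218).

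**Figure D3:**
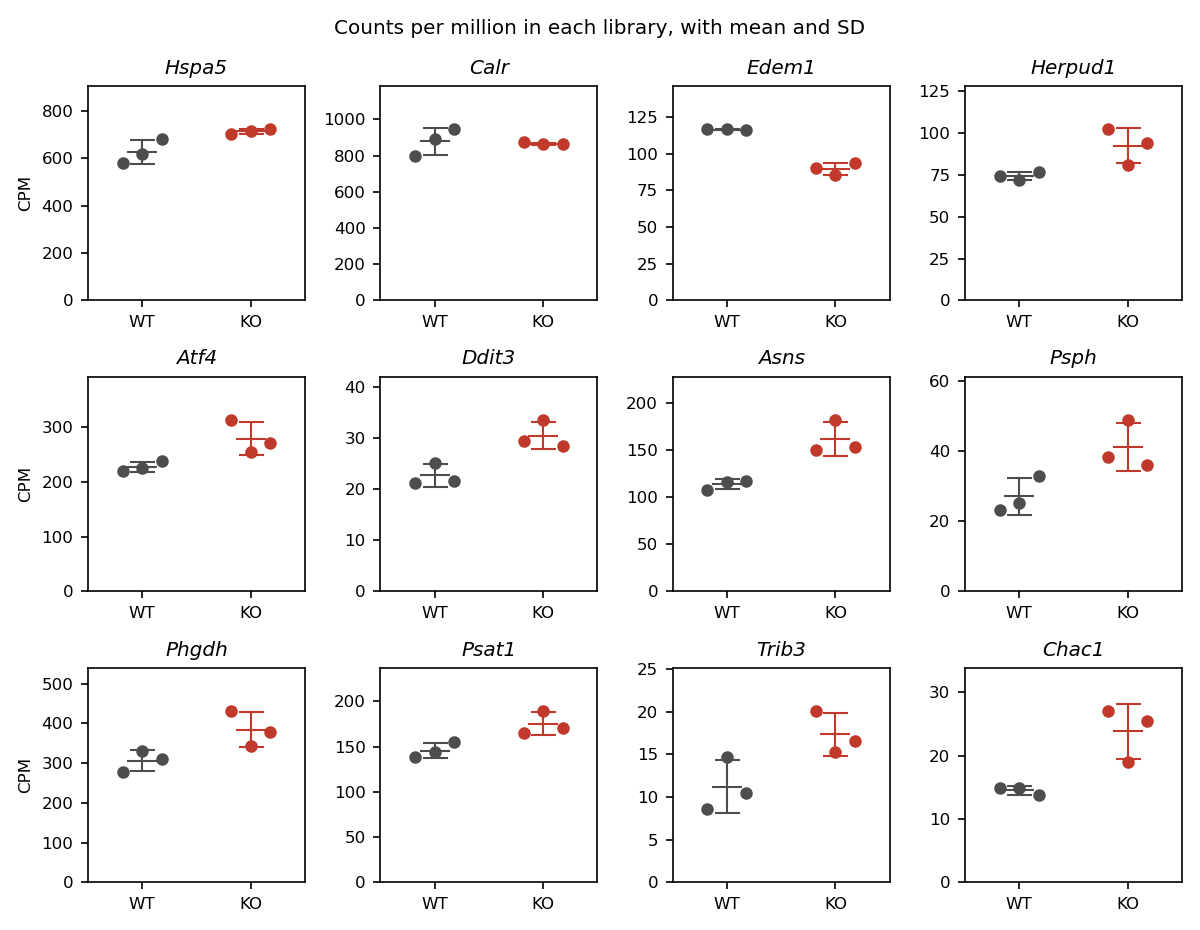
CPM of 12 members in the 3 WT (grey) and 3 KO (red) libraries, from left to right replicates 1 to 3, with the mean (dash) and SD (bars) on axes that start at 0. Hspa5 lies at 581 to 682 CPM in WT and 701 to 724 in KO, and Calr at 800 to 948 and 862 to 873. Edem1 is lower in each KO library, and Asns, Psph, Phgdh, Psat1, Trib3 and Chac1 are higher in each. Calr alone of these 12 has overlapping groups, whereas of all 36 members 12 lay above and 2 below WT without overlap.

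The remaining 4 ATF4 targets had log2 fold changes of both signs. Slc7a11, the cystine transporter, was the lowest member per length (0.242 CPM per kilobase in WT), with 44, 55 and 76 counts in WT and 63, 94 and 91 in KO, and its groups overlapped (log2 fold change 0.50 ± 0.28, adjusted p = 0.442). Its partner chain Slc3a2 had 139, 145 and 136 CPM in WT and 176, 119 and 160 in KO, with KO replicate 2 the lowest library (0.09 ± 0.14). Sesn2, a leucine sensor that restrains the growth kinase mTORC1, had 73.8, 74.1 and 62.9 CPM in WT and 71.1, 45.5 and 61.5 in KO (-0.27 ± 0.16, adjusted p = 0.458). Ddit4, another mTORC1 inhibitor that hypoxia and glucocorticoids also induce, had 59.6, 55.0 and 49.5 CPM in WT and 67.7, 39.9 and 46.4 in KO (-0.12 ± 0.18). In Slc3a2, Sesn2 and Ddit4 the lowest level was in KO replicate 2, and without it their log2 fold changes were 0.24, -0.11 and 0.03. The median over these 4 genes was -0.01, and 0.28 over all 12 ATF4 targets.

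The ER genes and the ATF4 targets were set side by side in each library. Relative to the WT mean, the median log2 level of the 8 ATF4 targets was -0.07, 0.01 and 0.04 in WT and 0.45, 0.38 and 0.36 in KO. The median of the 17 folding and degradation genes was -0.08, -0.02 and 0.10 in WT and -0.01, 0.11 and 0.03 in KO. The KO libraries were therefore apart from WT for the ATF4 targets and inside or next to the WT range for the ER genes. Asns gave 187, 189 and 172 counts per 1000 Hspa5 counts in WT and 214, 255 and 212 in KO. Chac1 gave 25.7, 24.1 and 20.1 in WT and 38.6, 26.4 and 35.2 in KO. For Trib3 this ratio overlapped between the groups (14.8, 23.7 and 15.3 in WT, 28.6, 21.3 and 22.9 in KO). It also overlapped for Ddit3 (36.5, 40.8 and 31.7 in WT, 42.0, 46.8 and 39.2 in KO). Without KO replicate 2 the medians of log2 fold change were 0.38 for the ATF4 targets and 0.03 for the ER genes. These are descriptions of lists and carry no test.

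Wider lists of the same pathways gave 1 called gene among 10 lists. Aminoacyl-tRNA synthetases, some of which ATF4 induces, had positive log2 fold changes in 17 of 19 tested genes, with a median of 0.17. Of the 19, 0 were called. The methionyl-tRNA synthetase gene, Mars in the table, was not matched by this list and had a log2 fold change of 0.06 ± 0.12. In 11 of the 19, or 57.9%, the KO libraries lay above WT, against 9.9% of all tested genes. Their median level per library was -0.07, -0.00072 and 0.06 in WT and 0.20, 0.21 and 0.19 in KO, so the groups were apart. Nars, the asparaginyl-tRNA synthetase, had the smallest p, with 310 ± 24.9 CPM in WT and 411 ± 25.7 in KO (SD, n = 3 per group, log2 fold change 0.39 ± 0.11, adjusted p = 0.103). Other ATF4 targets had a median of 0.13 over 25 genes. Per library their median level was 0.03, -0.04 and 0.03 in WT and 0.24, 0.02 and 0.14 in KO. KO replicate 2 thus fell inside the WT range for this list. The list held 1 call. That was Slc1a5, a glutamine transporter, which fell from 103 ± 4.23 to 63.0 ± 13.6 CPM (log2 fold change -0.73 ± 0.15, adjusted p = 0.0297). Slc1a5 had 1834, 1689 and 1793 counts in WT and 1238, 780 and 1227 in KO, each KO library below each WT library. With a single library left out it was no longer called for WT replicate 1 (adjusted p = 0.167), WT replicate 2 (0.163), WT replicate 3 (0.0823) or KO replicate 3 (0.117). Slc1a5 was still called without KO replicate 1 (adjusted p = 0.0154) and without KO replicate 2 (0.0031).

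Among other genes of the ER, the median was 0.06 over 25 other folding genes and -0.0044 over 20 other degradation genes, with Mlec (-0.28 ± 0.10, adjusted p = 0.244) and Derl3 (2.65 ± 0.75, adjusted p = 0.116) the genes of smallest p. Derl3 had 5, 1 and 1 counts in WT and 20, 13 and 13 in KO. Genes of translocation into the ER had a median of 0.24, positive in 21 of 22 genes and called in 0. For 16 of those 22 the highest library was KO replicate 2, which held the highest level of 31.6% of all tested genes, and without it the median was 0.07. Sec11a had the smallest p there (0.37 ± 0.18, adjusted p = 0.370). Collagen maturation genes had a median of -0.06 over 15 genes, with P4ha2 first (-0.35 ± 0.13, adjusted p = 0.247).

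In the remaining lists 0 genes were called by edgeR. Other regulators of the unfolded protein response had a median of -0.07 over 18 genes, led by Mbtps1, the protease that activates ATF6 (-0.27 ± 0.10, adjusted p = 0.243). The eIF2 kinases and eIF2B subunits had 0.07 over 11 genes (Eif2b1, 0.25 ± 0.12, adjusted p = 0.364). Cytosolic heat shock genes had -0.0048 over 16 genes (Dnajb4, 0.56 ± 0.18, adjusted p = 0.166) and mitochondrial stress genes 0.12 over 12 (Hspa9, 0.36 ± 0.12, adjusted p = 0.188).

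**Figure D4:**
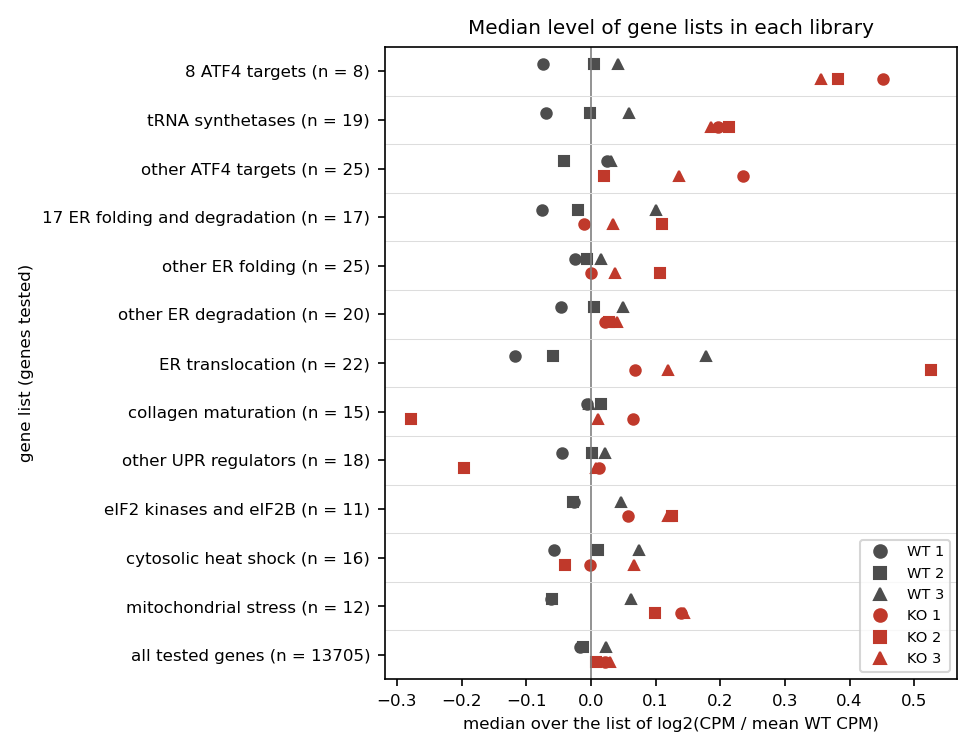
Median over each gene list (rows, with the number of tested genes) of log2 CPM relative to the WT mean, for the 3 WT (grey) and 3 KO (red) libraries, with a marker shape per replicate. KO libraries lie at 0.36 to 0.45 for the 8 ATF4 targets and at -0.01 to 0.11 for the 17 ER genes, and KO replicate 2 (red square) stands away from the other libraries for ER translocation, collagen maturation and other UPR regulators.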

How the data were processed

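The authors deposited 1 table of whole-number counts per gene, not normalized, with 6 library columns whose names matched the sample titles. Per the submitters' processing notes, HISAT2, StringTie, SAMtools and mm9 were used, and how reads were counted is not given there. The deposited gene lengths (another kind of number) served only for levels per kilobase. Start and end were those of GENCODE M21 for 98.3% of 54409 identifiers and for 36 of 36 members, so coordinates are given as GRCm38, not mm9.

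The test was the edgeR (4.0.16, R 4.3.3) quasi-likelihood test with robust moderation, TMM scaling, the filterByExpr defaults (count 10, total 15) and genotype as the only term, at 0.05 after Benjamini-Hochberg adjustment. Printed CPM use library totals. SE is the absolute log2 fold change over the square root of F. The code was tested on simulated data. Alternatives were DESeq2 1.42.0, limma 3.58.1, other scalings and filters, protein-coding genes only, other moderation, a block for replicate number, and each library left out. Medians of the wider lists without single libraries were added after seeing the data. An exact permutation test of 3 against 3 cannot go below 0.1 and was not used.

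The members, roles and lists were chosen with earlier results of these data known. Named members were the 3 of smallest p and the most abundant per length in each role, plus Atf4, Ddit3, Xbp1, Hspa5, Asns, Trib3 and Chac1. From each wider list the called genes and the gene of smallest p were named. Other members were added after their values were seen, so that all 36 are accounted for. Counts of 18 members may include reads of an overlapping gene. In 6 of them an overlapping gene had at least 1% as many counts as the member (Atf5, Ddit3, Manf, Psph, Shmt2 and Mthfd2). Atf5 shares 82 exon bases with Nup62 on the other strand, which had a log2 fold change of 0.02 ± 0.14.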

Additional observations from a re-analysis of the deposited data

How the results depend on the processing

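The number of members called was 0 in the reported fit and with limma-voom, the stricter filter, no robust moderation and the replicate block. It was 1 with DESeq2 size factors, upper-quartile factors or protein-coding genes only (Asns each time), 2 with library totals (Asns and Chac1), 4 without the filter on low counts, 4 in DESeq2 and 13 in limma-voom with quality weights. With single libraries left out it ranged from 0 to 4. Over all genes, 366 were called, against 883 without the filter, 656 in DESeq2, 2541 with quality weights, and 147 to 610 with single libraries left out. The median of the 8 ATF4 targets, 0.39, ranged from 0.34 to 0.43 with single libraries left out and was 0.33 with quality weights and 0.28 over 12 targets. The ER median of 0.07 ranged from 0.01 to 0.09 over its alternatives. Of 340 pairs of a named member and an alternative, 307 kept direction and side of the threshold, 29 became called and 4 changed sign. Atf5 was -0.0083 without WT replicate 3 and -0.081 without KO replicate 1, and ranged from -0.081 to 0.186 with single libraries left out. Calr was 0.0025 without WT replicate 3 (range -0.103 to 0.0025), and Slc3a2 was -0.037 without KO replicate 1 (range -0.037 to 0.236). Of the calls, 50 were higher and 316 lower in KO, against 258 and 625 without the filter and 1105 and 1436 with quality weights. The cause of these shifts was not tested. Same-numbered libraries had deviation correlations of 0.14, -0.11 and -0.19, and differently numbered ones ranged from -0.19 to 0.26. With 3 libraries per group, these values cannot decide whether the numbers pair the samples. The replicate block called 331 genes and 0 members.
The widest SEs among the members were 0.28 for Slc7a11 and 0.21 for Trib3, at 44 to 94 and 148 to 332 counts per library.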

Other observations

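As a description over the 6 libraries, with no test, the genes outside the 36 whose log2 CPM followed Asns most closely were Gm8822, Exoc6, Prmt7, Mesd and Ptger2 (Pearson's r 0.986 to 0.991). Those closest to Hspa5 were H2-M9, Gm28932, Zfp69, Hbegf and Pes1 (r 0.991 to 0.998). The 6 points share the genotype split and KO replicate 2, which lay far from the rest, and 13705 genes were searched. Among other ATF4 targets, Slc7a5, an amino acid transporter, had a log2 fold change of 0.37 ± 0.12 (adjusted p = 0.186, edgeR). Cebpb, a factor that ATF4 induces, had -0.72 ± 0.19 (adjusted p = 0.0833, edgeR). Neither was called, but both were in the edgeR fit without KO replicate 2 (adjusted p = 0.0109 for Slc7a5 and 0.0167 for Cebpb). Both genes were chosen after their values were seen.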
